A study of Mus musculus with 11 samples.

Results

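Transcripts of 10 genes whose products sit at the Z-disc of striated muscle or respond to stretch were followed in mouse tibialis anterior (TA) muscle. The 10 are Ankrd1, Ankrd2, Ankrd23, Xirp1, Xirp2, Csrp3, Nrap, Igfn1, Flnc and Myoz2. Members were taken by gene symbol, 10 of the 21759 symbols in the deposited mRNA array table, and each symbol had 1 probe set of 25 to 49 probes. The table placed all 10 probe sets in its class of probes with a unique target. The mice were 3 wild-type C57 males (the labels give the strain of every group as C57/B10), 4 untreated *mdx* males and 4 *mdx* males that had received 1 tail-vein dose of Pip6e-PMO (12.5 mg/kg) when 12 weeks old, and muscles of all groups were taken at 14 weeks. The *mdx* mouse carries a nonsense mutation in the dystrophin gene and models Duchenne muscular dystrophy, and the treated mice carry the same mutation. Pip6e-PMO is a cell-penetrating peptide joined to a morpholino oligonucleotide that makes the mutated exon be skipped, so that a shortened dystrophin can be made. The untreated *mdx* and C57 mice received no morpholino, so that the effects of the peptide and of injection cannot be told apart from that of exon skipping here.

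The Z-disc is the border between sarcomeres, where actin filaments of opposite polarity and the ends of titin are cross-linked by alpha-actinin. Proteins bound there or along the titin spring take part in repair of torn sarcomeres, in the link to the membrane at costameres, and in signals to the nucleus when a fibre is stretched. In skeletal muscle, several of their genes are known to be induced by eccentric exercise, denervation or injury, and dystrophin itself belongs to the system that connects the Z-disc laterally to the matrix.

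The proximal promoters of 3 of the genes are shown because Ankrd1, which differed most between *mdx* and C57 mice, holds sites of a stretch-linked factor family, and because Xirp2 and Myoz2 hold the only MEF2 sites among the genes with a window. RefSeq windows of GRCm38.p6, running from 250 bases before to 50 bases after each start site, were available for 9 of the 10 genes, with 12 windows in all. The MCAT element, which TEAD factors bind, was searched as CATTCC on both strands, and the MEF2 site and the CArG box of serum response factor by their consensus. Capitals mark the matches. In Ankrd1 they are GGAATG, which is CATTCC on the opposite strand, at -210 to -205 and at -123 to -118 from the start. The bases shown are the 250 upstream of the start, 5′ to 3′ on the strand of the gene, at chr19:36119845-36120094 (minus strand) for Ankrd1, chr2:67445752-67446001 (plus strand) for Xirp2 and chr3:123034988-123035237 (minus strand) for Myoz2.
Ankrd1: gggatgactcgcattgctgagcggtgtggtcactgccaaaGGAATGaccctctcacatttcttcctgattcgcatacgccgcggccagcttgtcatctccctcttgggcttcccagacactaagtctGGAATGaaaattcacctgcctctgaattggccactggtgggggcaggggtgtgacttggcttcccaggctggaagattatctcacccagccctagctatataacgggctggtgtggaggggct
Xirp2: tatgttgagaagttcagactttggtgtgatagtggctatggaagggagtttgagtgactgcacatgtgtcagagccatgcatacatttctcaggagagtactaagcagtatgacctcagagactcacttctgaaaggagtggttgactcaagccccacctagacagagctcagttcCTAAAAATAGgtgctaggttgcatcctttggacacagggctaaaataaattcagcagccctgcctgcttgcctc
Myoz2: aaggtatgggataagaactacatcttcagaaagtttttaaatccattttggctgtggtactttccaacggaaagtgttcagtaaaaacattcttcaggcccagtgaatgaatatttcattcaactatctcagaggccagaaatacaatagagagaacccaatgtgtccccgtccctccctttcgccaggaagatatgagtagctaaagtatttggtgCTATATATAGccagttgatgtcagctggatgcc

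An MCAT element lay in the windows of 3 of the 9 genes, Ankrd1, Ankrd23 and Flnc, and in those of 16.6% of all 27025 genes with a window. A MEF2 site lay in those of 2, at -74 to -65 in Xirp2 and at -33 to -24 in Myoz2, and in those of 3.70% of all genes. A CArG box lay in 0 of the 9 and in those of 1.81% of all genes. These matches describe letters in the windows, and binding was not measured.

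Signals are log2 of the deposited array intensities, each mouse having its own array, and a difference of 1 on this scale is a 2-fold ratio. A gene was called when its adjusted p (Benjamini-Hochberg) was under 0.05, with limma fitted to all 11 mice and adjustment over 14494 probe sets whose mean intensity reached 30 in at least 1 group. All 10 genes passed that minimum. For Igfn1 the C57 mean intensity was 29.2, so it passed through the *mdx* and treated groups. Median intensity was 27.5 to 28.6 over the arrays, and 48.2% to 49.2% of probe sets reached 30. With 3 or 4 arrays per group, the number of arrays limits the precision.

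The patterns of calls differed among the 10 genes, although differences between genes were not tested. Ankrd1, Igfn1 and Xirp1 were higher in *mdx* than in C57 mice, and their treated means were also above C57. Ankrd2 and Csrp3 passed no test between *mdx* and C57 mice but were higher in treated mice than in both, while Myoz2 was higher in treated than in untreated *mdx* mice with no call against C57. Ankrd23, Xirp2, Nrap and Flnc passed no test.

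Between *mdx* and C57 mice, 3 of the 10 genes were higher, against 7.06% of all tested probe sets; 1 of the 3 is Igfn1, which entered the test through the groups where it is high. None was lower, against 4.96%. At an unadjusted p under 0.05, 1 was lower in limma, which was Myoz2, and 0 by the test of the study's methods. That test was run here on log2 signals, and the study itself reports Myoz2 as lower in *mdx* muscle. Between treated and untreated *mdx* mice, 3 of 10 were higher, against 7.26% of probe sets, and none was lower, against 3.88%, with 1 lower at an unadjusted p under 0.05 in each test, Ankrd1 in limma and Ankrd23 by the test of the methods. Between treated and C57 mice, 5 of 10 were higher, Igfn1 among them, against 15.6%, and none was lower, against 8.96%, with 0 lower at an unadjusted p under 0.05 in both tests. The median difference over the 10 was 0.15, 0.27 and 0.56 in these comparisons, and over all tested probe sets -0.01, 0.02 and 0.003. The comparisons share mice, so their values stand side by side here and are not independent. The 10 genes were chosen with earlier results of these data known. Their counts beside the shares of all probe sets are therefore a description and not a test. These shares of all probe sets move with single mice. The 1615 calls between treated and *mdx* mice became 4123 without treated replicate 2, and 490, 381 and 296 without treated replicates 1, 3 and 4. They became 988, 566 and 353 without *mdx* replicates 2, 3 and 4. Without C57 replicates 2 and 3, the 1742 calls between *mdx* and C57 mice became 1006 and 1134, and the 3564 between treated and C57 mice 1994 and 1902.

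**Figure D1:**
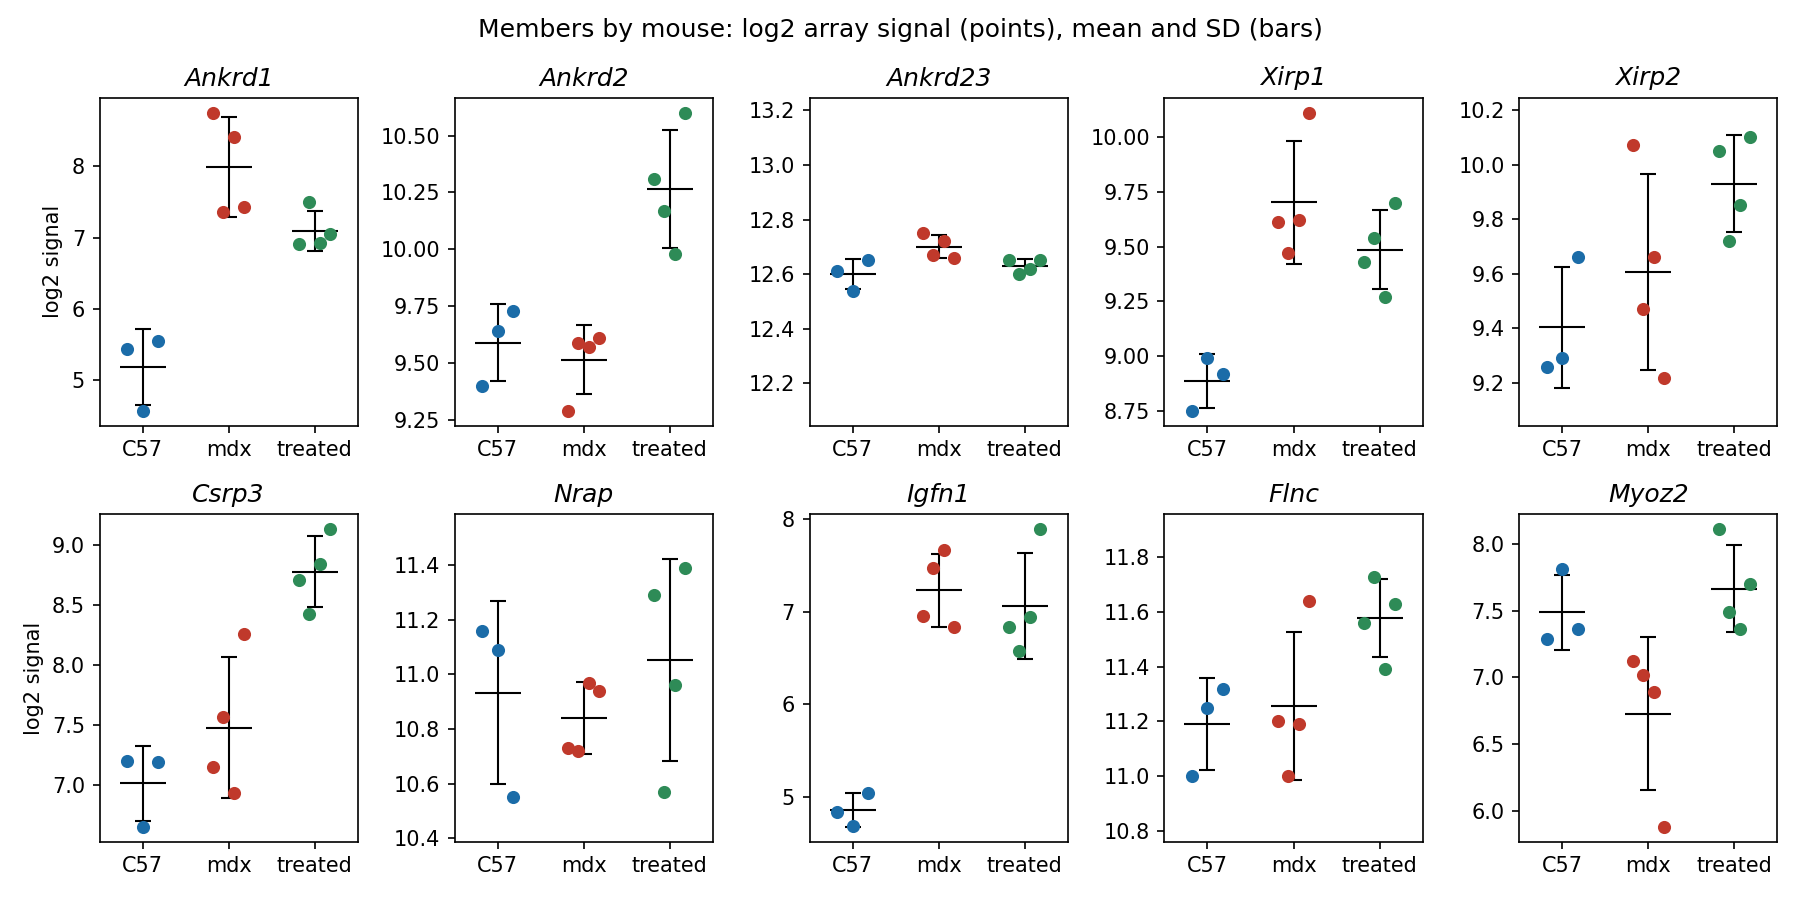
Log2 array signal of each of the 10 genes (vertical axis, its own range per panel) in C57, untreated *mdx* and treated *mdx* mice; points are mice, the long bar is the group mean and the whiskers are 1 SD. Ankrd1 and Igfn1 show C57 mice below every *mdx* mouse, and Ankrd2 and Csrp3 show treated mice above all others.

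Ankrd1, Ankrd2 and Ankrd23 form the muscle ankyrin repeat protein family, which binds titin in the I-band and can move to the nucleus. Ankrd1 (CARP), the member best known for induction by stretch and injury, was measured by probe set 10467191 on chromosome 19, 36186453 to 36194332, minus strand; no genome build is named for the deposited positions, which are not comparable with those of the promoters. Its log2 signal was 5.44, 4.57 and 5.55 in the C57 mice, 8.75, 7.36, 8.41 and 7.43 in the *mdx* mice, and 6.91, 7.50, 6.92 and 7.05 in the treated mice. Every *mdx* and every treated mouse lay above every C57 mouse, with gaps of 1.81 and 1.36, while the *mdx* and treated ranges overlapped. The *mdx* mean exceeded the C57 mean by 2.80 (SE 0.34, limma adjusted p = 3.3e-04), a 6.97-fold ratio. The treated mean was above C57 by 1.91 (SE 0.34, limma adjusted p = 0.00276), a 3.75-fold ratio. The C57 mean intensity was 38.0, close to the minimum of 30, and C57 replicate 2 (log2 signal 4.57) lay under that minimum. Both fold ratios therefore rest on a C57 signal near the minimum, and their size is uncertain. Without C57 replicate 2 the difference from C57 was 2.49 for *mdx* and 1.60 for treated mice. Against untreated *mdx* mice the treated difference was -0.89, with a 95% interval from -1.58 to -0.21, and did not pass (limma adjusted p = 0.0807). Without treated replicate 2 it was -1.03 and passed (limma adjusted p = 0.0397). The SD was 0.70 in *mdx* and 0.28 in treated mice.

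Ankrd2 (Arpp), a relative of Ankrd1 with high expression in slow fibres, was measured by probe set 10463189 on chromosome 19, 42110458 to 42119600, plus strand. Its log2 signal was 9.40, 9.64 and 9.73 in C57 mice, 9.29, 9.59, 9.57 and 9.61 in *mdx* mice, and 10.31, 10.17, 9.98 and 10.60 in treated mice. C57 and *mdx* mice overlapped, and every treated mouse was above all of them, by 0.25 over the highest C57 and 0.37 over the highest *mdx* mouse. Treated exceeded *mdx* mice by 0.75 (SE 0.14, limma adjusted p = 0.0113), a 1.68-fold ratio, and C57 mice by 0.68 (SE 0.15, limma adjusted p = 0.00744). The *mdx* mean differed from C57 by -0.07, with a 95% interval from -0.39 to 0.24.

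Ankrd23 (DARP), the third member, has probe set 10353878 on chromosome 1, 36587038 to 36596203, minus strand. Its log2 signal was 12.61, 12.54 and 12.65 in C57 mice, 12.75, 12.67, 12.72 and 12.66 in *mdx* mice, and 12.65, 12.60, 12.62 and 12.65 in treated mice. The *mdx* mice lay above the C57 mice by a gap of 0.01 and above the treated mice by the same gap, and no comparison passed the test. The difference was 0.10 between *mdx* and C57 (95% interval -0.07 to 0.27), -0.07 between treated and *mdx* (-0.23 to 0.09) and 0.03 between treated and C57 (-0.14 to 0.20). Within this family the 3 genes therefore had different patterns of calls, although a difference between genes was not tested.

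Xirp1 and Xirp2 encode Xin repeat proteins, which bind actin; Xin, the product of Xirp1, gathers at sites of myofibril damage and binds filamin C. Xirp1, probe set 10597764 on chromosome 9, 119922873 to 119932687, minus strand, had a log2 signal of 8.75, 8.99 and 8.92 in C57 mice, 9.61, 9.47, 9.62 and 10.11 in *mdx* mice, and 9.43, 9.54, 9.27 and 9.70 in treated mice. All *mdx* mice were above all C57 mice, by 0.48, as were all treated mice, by 0.28, and the *mdx* and treated ranges overlapped. The rise in *mdx* mice was 0.82 (SE 0.15, limma adjusted p = 0.00457), a 1.76-fold ratio, and treated mice exceeded C57 mice by 0.60 (SE 0.15, limma adjusted p = 0.0156). Treated minus *mdx* was -0.22, with a 95% interval from -0.52 to 0.09. Without C57 replicate 1 the treated minus C57 call was lost (limma adjusted p = 0.0526).

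Xirp2, which encodes myomaxin or XIRP2 and is a known target of MEF2, has probe set 10472426 on chromosome 2, 67234292 to 67364663, plus strand, and a MEF2 site in the promoter already shown. Its log2 signal was 9.26, 9.29 and 9.66 in C57 mice, 10.07, 9.47, 9.66 and 9.22 in *mdx* mice, and 10.05, 9.72, 9.85 and 10.10 in treated mice. The *mdx* mice spanned the whole C57 range, and treated mice lay above all C57 mice by 0.06. The treated mean exceeded C57 by 0.53, with an adjusted p of 0.0536 in limma, above the threshold, and *mdx* mice by 0.33, with a 95% interval from -0.04 to 0.69. The *mdx* mean exceeded C57 by 0.20, with an interval from -0.20 to 0.60. The treated minus C57 difference passed under 8 of the alternatives tried.

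Csrp3 and Nrap encode LIM-domain proteins. Csrp3 (muscle LIM protein) is found at the Z-disc and in the nucleus, is a regulator of muscle differentiation and is richer in slow than in fast fibres. Its probe set, 10563770, lies on chromosome 7, 56085768 to 56103403, minus strand. The log2 signal of Csrp3 was 7.20, 6.65 and 7.19 in C57 mice, 7.15, 7.57, 6.93 and 8.26 in *mdx* mice, and 8.71, 8.42, 8.84 and 9.13 in treated mice. Treated mice were above every other mouse, by 1.22 over C57 and by 0.16 over the highest *mdx* mouse, replicate 4. Treated exceeded *mdx* mice by 1.30 (SE 0.26, limma adjusted p = 0.0158), a 2.46-fold ratio, and C57 mice by 1.76 (SE 0.28, limma adjusted p = 0.00142), a 3.39-fold ratio. The *mdx* mean was 0.46 above C57, with a 95% interval from -0.14 to 1.07.

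Without treated replicate 4, the treated minus *mdx* difference of Csrp3 was 1.18 with a limma adjusted p of 0.0527, so this call rested on that mouse being included. Nrap, a scaffold of growing myofibrils that is concentrated at myotendinous junctions, has probe set 10468593 on chromosome 19, 56394531 to 56464525, minus strand. Its log2 signal was 11.16, 11.09 and 10.55 in C57 mice, 10.73, 10.72, 10.97 and 10.94 in *mdx* mice, and 11.29, 10.57, 10.96 and 11.39 in treated mice. All groups overlapped. The 95% intervals were -0.52 to 0.33 for *mdx* minus C57, -0.18 to 0.61 for treated minus *mdx* and -0.31 to 0.55 for treated minus C57.

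Igfn1, Flnc and Myoz2 encode partners at the Z-disc: Igfn1 is an immunoglobulin and fibronectin domain protein of the sarcomere, Flnc is filamin C, the muscle actin cross-linker that also binds the dystrophin-associated complex, and Myoz2 (calsarcin-1) binds alpha-actinin, filamin C and calcineurin. Igfn1, probe set 10358140 on chromosome 1, 137850155 to 137863442, minus strand, had a log2 signal of 4.84, 4.69 and 5.05 in C57 mice, 6.95, 7.47, 7.66 and 6.84 in *mdx* mice, and 6.84, 6.58, 6.94 and 7.89 in treated mice. C57 mice were below all others, by 1.79 under *mdx* and 1.53 under treated mice, and the *mdx* and treated mice overlapped. The rise in *mdx* mice was 2.37 (SE 0.28, limma adjusted p = 2.8e-04), and that of treated over C57 mice was 2.20 (SE 0.28, limma adjusted p = 3.76e-04). The C57 mean intensity, 29.2, was under the minimum of 30, so no fold ratio is given against that group. Treated minus *mdx* was -0.17, with a 95% interval from -0.73 to 0.40.

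Flnc, probe set 10536845 on chromosome 6, 29383459 to 29411881, plus strand, had a log2 signal of 11, 11.25 and 11.32 in C57 mice, 11.20, 11, 11.19 and 11.64 in *mdx* mice, and 11.56, 11.73, 11.39 and 11.63 in treated mice. Treated mice lay above all C57 mice by 0.07 and overlapped the *mdx* mice through the highest of these. Treated minus *mdx* was 0.32 (95% interval 0.02 to 0.62) with a limma adjusted p of 0.133, treated minus C57 was 0.39 with a limma adjusted p of 0.0726 (0.0343 without *mdx* replicate 4), and *mdx* minus C57 was 0.07 (interval -0.25 to 0.39).

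Myoz2, typical of slow fibres and the heart, has probe set 10501895 on chromosome 3, 122709124 to 122737868, minus strand. Its log2 signal was 7.29, 7.81 and 7.36 in C57 mice, 7.12, 7.02, 6.89 and 5.88 in *mdx* mice, and 8.11, 7.49, 7.36 and 7.70 in treated mice. The *mdx* mice lay below all others, by a gap of 0.17 under C57 and 0.24 under treated mice, and the lowest *mdx* mouse was replicate 4. Treated exceeded *mdx* mice by 0.94 (SE 0.26, limma adjusted p = 0.0385), a 1.92-fold ratio. Without *mdx* replicate 4, the lowest mouse, the difference was 0.66 with a limma adjusted p of 0.0732, and the call was also lost without *mdx* replicate 3 (0.0697), treated replicate 1 (0.104), treated replicate 3 (0.062) or treated replicate 4 (0.0944). The *mdx* mean was below C57 by a difference of -0.76 that did not pass (limma adjusted p = 0.102), and treated minus C57 was 0.18, with a 95% interval from -0.42 to 0.78.

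**Figure D2:**
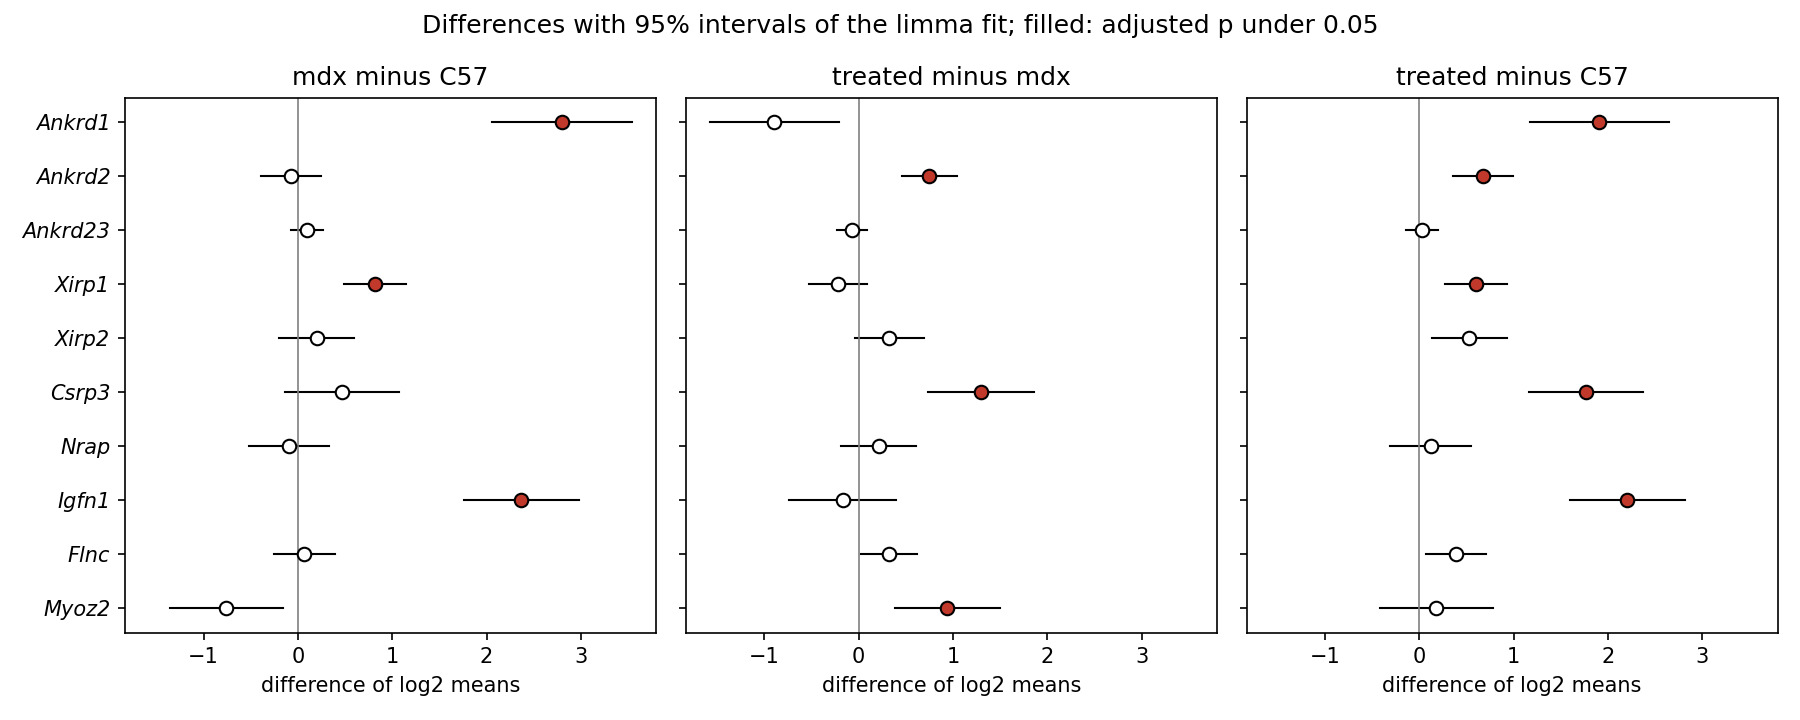
Difference of log2 group means (horizontal axis) for each of the 10 genes in 3 comparisons, with 95% intervals of the limma fit; filled points have an adjusted p under 0.05. Ankrd1, Xirp1 and Igfn1 are filled in the left panel, and Ankrd2, Csrp3 and Myoz2 in the middle one.

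Treated mice were not ranked alike by all genes. Their order was not counted over all probe sets, so it is not known to be particular to these genes. Treated replicate 4 had the highest treated signal for 6 of the 10 genes and the lowest for none of them. Replicates 1 and 2 were highest for 2 each, and replicate 3 for none. Ankrd23 was tied at 12.65 between replicates 1 and 4 and is counted for replicate 1. Replicate 2 was lowest for 5 genes and replicate 3 for 4, yet replicate 2 was the highest for Ankrd1. The study reports the lowest efficacy in its treated sample T2, by RT-qPCR of exon skipping and by mass spectrometry of dystrophin. Its western blot values did not correlate significantly with either. T2 also lay nearest the *mdx* samples when the study clustered its mRNA arrays. Treated replicate 2 is taken to be T2 by its number. Treated replicate 2 also had a mean log2 signal of 8.30 over the 11 regenerating fibre markers, within the *mdx* range of 8.15 to 8.76, while the other treated mice had 7.75, 7.58 and 7.34. The part of regenerating fibres and of the lower efficacy in the values of Ankrd1 was not tested. No order among replicates is implied by their numbers.

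**Figure D3:**
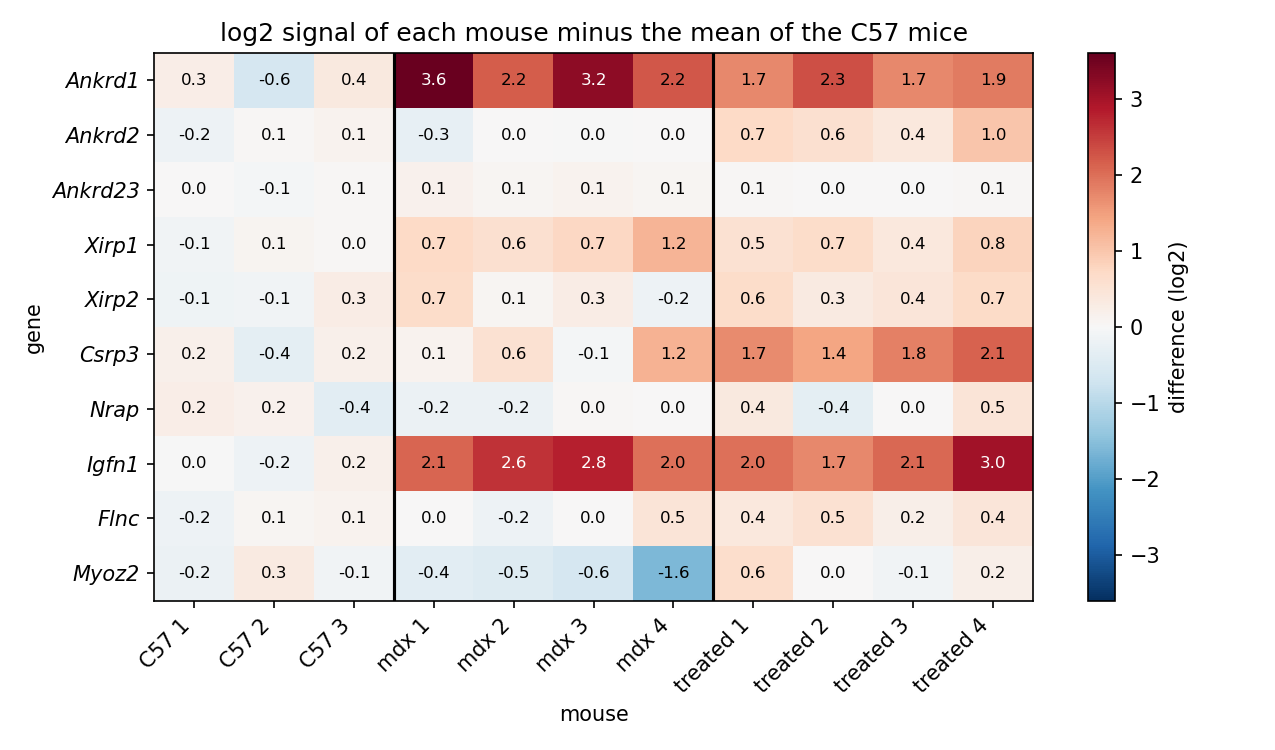
Log2 signal of each mouse minus the mean of the 3 C57 mice, for 10 genes (rows) and 11 mice (columns), with black lines between the groups. Ankrd1 and Igfn1 were raised in every *mdx* and treated mouse, Csrp3 in every treated mouse, and Myoz2 was lowest in *mdx* replicate 4.

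Other genes of the same structures were mostly without a call, as were most of all tested probe sets. Of these, 7.06% were higher and 4.96% lower in *mdx* than in C57 mice. Between treated and *mdx* mice 7.26% were higher and 3.88% lower. Of 21 other Z-disc genes, 1 was lower in *mdx* than in C57 mice, Fhl3 (-0.42, limma adjusted p = 0.0241), and none was higher, with none higher at an unadjusted p under 0.05 in limma either. In treated against *mdx* mice 1 was higher, Fhl1 (0.51, limma adjusted p = 0.0161), a LIM protein that is abundant in skeletal muscle. Of 14 titin filament and M-band genes, 0 passed in either comparison; at an unadjusted p under 0.05 limma gave 1 higher and 2 lower in *mdx*, and 4 higher and 0 lower in treated mice, and the adjusted test of the methods gave 0. Of 14 genes of filamin turnover and sarcomere chaperones, 0 passed; unadjusted counts in limma were 2 higher and 0 lower in *mdx*, and 3 higher and 2 lower in treated mice, and the adjusted test of the methods gave 0. The median differences of these lists between *mdx* and C57 mice were 0.03, 0.03 and 0.19. Treated against C57 mice, 3 were higher and 1 lower in the first list, 2 and 0 in the second, and 4 and 0 in the last. Of all tested probe sets, 15.6% were higher and 8.96% lower in that comparison.

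Calls among genes of the attachment sites of the fibre stand beside the shares of all tested probe sets, 7.06% higher and 4.96% lower in *mdx* mice. Of 16 myotendinous junction and costamere genes, 5 were higher in *mdx* mice and 1 was lower: Itgb1 (0.63, limma adjusted p = 0.0197), Col22a1 (0.59, 0.0363), Itga7 (0.57, 0.0319), Vcl (0.54, 0.0372) and Murc (0.47, 0.0374) rose, and Sorbs3 fell (-0.53, 0.0103). Itgb1 and Itga7 encode the laminin receptor of muscle, Vcl vinculin, Col22a1 the collagen of the tendon junction. Murc and Sorbs3 fall outside the rule by which genes were named and are given because they complete the count. In treated against *mdx* mice 2 were higher, Lims1 (0.86, limma adjusted p = 0.0102) and Itgb1 (0.58, 0.0284), against 7.26% of all tested probe sets. Treated against C57 mice, 4 were higher and 2 lower, against 15.6% and 8.96%.

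Ankrd1 is a known target of YAP and TAZ acting through TEAD factors. Of 17 YAP-TEAD and SRF mechanosensing genes, 5 were higher in *mdx* mice and 0 lower: Egr1 (0.79, limma adjusted p = 0.0244), Fosl1 (0.79, 0.046), Wwtr1, which encodes TAZ (0.64, 9.55e-04), Mustn1 (0.60, 0.00276) and, outside the naming rule, Tead4 (0.48, 0.0291). Fosl1 passed the signal minimum through *mdx* and treated mice, its C57 mean intensity being 26.0. At an unadjusted p under 0.05 limma gave 0 lower as well. In treated against *mdx* mice 2 were higher, Wwtr1 (0.53, 0.00787) and Tead1 (0.50, 0.0352). Ctgf and Cyr61, named outside the rule as the textbook targets beside Ankrd1, did not pass in *mdx* against C57 mice: Ctgf differed by 0.01 and Cyr61 by 0.56 (limma adjusted p = 0.176). Of 12 calcineurin pathway genes none passed in *mdx* mice, with 1 higher and 1 lower at an unadjusted p under 0.05 in limma and 0 by the adjusted test of the methods, and 1 was higher in treated mice, Ppp3ca (0.55, limma adjusted p = 0.0229), the catalytic subunit of calcineurin. Treated against C57 mice, 5 were higher and 0 lower in the mechanosensing list, and 2 and 0 in the calcineurin list. The shares of all tested probe sets were 7.06% higher and 4.96% lower in *mdx* against C57 mice. They were 7.26% and 3.88% in treated against *mdx* mice, and 15.6% and 8.96% in treated against C57 mice.

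**Figure D4:**
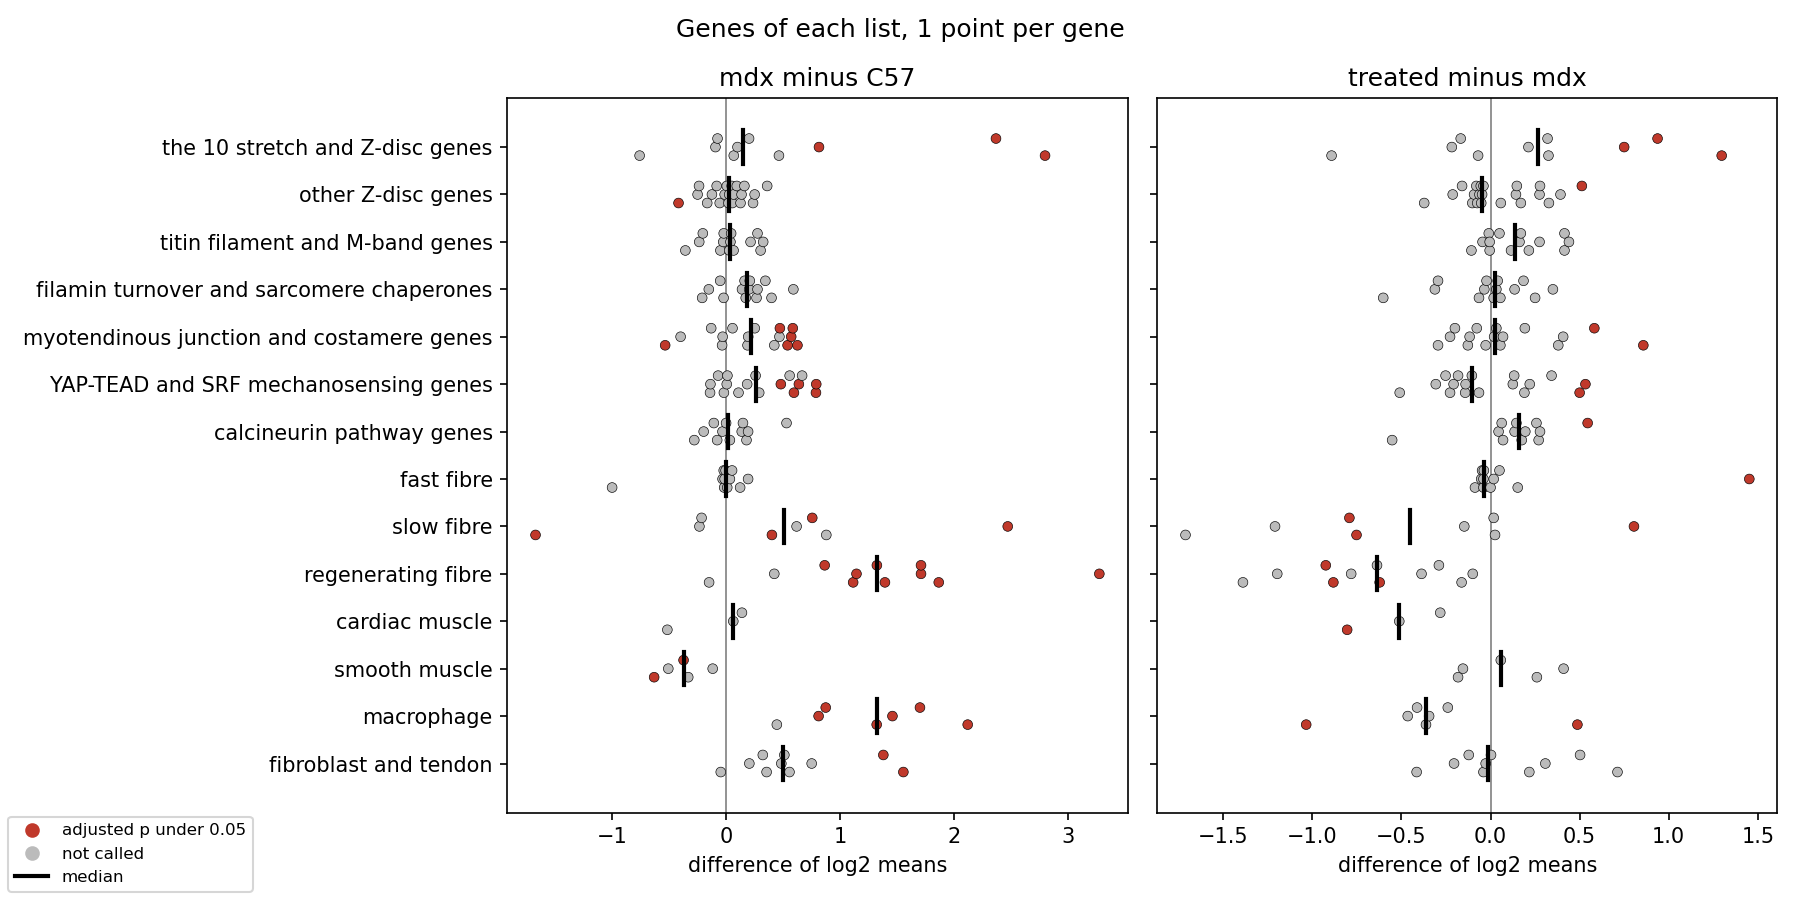
Difference of log2 group means (horizontal axis) for every gene that reached the signal minimum in each gene list (rows), 1 point per gene, for *mdx* minus C57 and treated minus *mdx* mice; red points have an adjusted p under 0.05, and the black bar is the list's median. The other Z-disc genes cluster near 0, whereas regenerating fibre and macrophage markers lie to the right in the left panel.

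The tissue label was checked against markers. All 11 fast fibre markers reached the signal minimum, with summed intensities of 67700 to 69250 (C57), 68870 to 69920 (*mdx*) and 66190 to 70870 (treated). Acta1, skeletal actin, had a log2 signal of 13.21 to 13.32 over the 11 mice. Of 6 cardiac markers 3 were below the minimum, Myl7, Nppa and Nppb, and in slow fibre markers Myh7 was below it, so 8 of 9 were tested. In bulk muscle, fewer cells of a type and less RNA per cell cannot be told apart.

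Markers of other cells and fibre states moved with the same comparisons. The shares of all tested probe sets were 7.06% higher and 4.96% lower in *mdx* against C57 mice, and 7.26% and 3.88% in treated against *mdx* mice. Of 11 regenerating fibre markers 9 were higher in *mdx* mice and 0 lower, such as Tmem8c (3.28, limma adjusted p = 0.00116) and Myh3 (1.87, 0.0086), and 3 were lower in treated than in *mdx* mice, Tnnt2 (-0.93, 0.0304), Myl4 (-0.88, 0.0356) and, outside the rule, Chrna1 (-0.62, 0.0388). The C57 mean intensity of Myh3, 19.3, was under the minimum. Their summed intensity ran from 3906 to 5185 (C57), from 9775 to 12040 (*mdx*) and from 6229 to 10080 (treated). Of the 8 macrophage markers 7 were tested and 6 were higher in *mdx* mice, among them Cd68 (2.12, limma adjusted p = 3.44e-04) and Lyz2 (1.70, 1.57e-04). Itgam, another of the 6, had a C57 mean intensity of 28.4, under the minimum. Summed intensities of the 8 were 940 to 1371 (C57), 2472 to 3941 (*mdx*) and 2045 to 2605 (treated). Treated against *mdx* mice, Cd68 was lower (-1.04, 0.0245) and Mrc1 higher (0.49, 0.0377). Cd163 was below the minimum. Of 10 fibroblast and tendon markers 2 were higher in *mdx* mice, Lum (1.56, 0.00419) and Col3a1 (1.38, 0.00233), and the summed intensity was 7233 to 13470 (C57), 12050 to 15850 (*mdx*) and 9326 to 18550 (treated). The part of these cells in the rises of Ankrd1, Igfn1 and Xirp1 was not tested.

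Some fibre type markers also differed between the groups, in both directions. Their counts stand beside the same shares of all tested probe sets as above. Myh2, the myosin of type IIa fibres, had a log2 signal of 9.15, 9.63 and 8.98 in C57 mice, 8.66, 7.85, 8.71 and 7.79 in *mdx* mice, and 10.44, 9.13, 9.49 and 9.76 in treated mice. The *mdx* mice were below all others, as for Myoz2 but not for Ankrd2 or Csrp3. Treated exceeded *mdx* mice by 1.45 (limma adjusted p = 0.0158), the 1 call among 11 fast fibre markers, and *mdx* minus C57 was -1.0 (limma adjusted p = 0.0574). In that comparison 0 fast fibre markers passed, with 1 lower at an unadjusted p under 0.05 in limma. Of the slow fibre markers tested, 3 were higher and 1 lower in *mdx* mice: Tnni1 (2.47, 0.0132), Atp2a2 (0.76, 4.08e-04) and Tpm3 (0.40, 0.0223) rose and Myl3 fell (-1.67, 5.06e-04). Within their groups, Tnni1 was highest in *mdx* replicate 3 (10.30) and treated replicate 2 (9.25). The regenerating fibre marker Tmem8c was highest in the same mice (9.27 and 8.59). The part of regenerating fibres in the Tnni1 difference was not tested. In treated against *mdx* mice Myl3 was higher (0.81, limma adjusted p = 0.0297), and 2 were lower, Tnnt1 (-0.79, 0.033) and Myl2 (-0.75, 0.0328), the latter named outside the rule and with a treated mean intensity of 18.5, under the minimum. The median treated minus *mdx* difference was -0.45 over the slow fibre markers tested and -0.04 over the fast ones. At an unadjusted p under 0.05, limma gave 1 slow fibre marker higher and 4 lower in treated mice. Among the lower were Tnni1 (-1.71) and, outside the naming rule, Tnnc1 (-1.21). The slow fibre summed intensity was 1883 to 2137 (C57), 2019 to 3335 (*mdx*) and 1863 to 2482 (treated). Cardiac Tnni3 was lower in treated than in *mdx* mice (-0.81, limma adjusted p = 0.0324), with a treated mean intensity of 26.0 that is under the minimum, and of 5 smooth muscle markers 0 passed between treated and *mdx* mice, with 2 higher at an unadjusted p under 0.05 in limma. The summed intensity of the cardiac markers was 198.5 to 211.2 (C57), 185.7 to 212.5 (*mdx*) and 140.0 to 164.8 (treated). In *mdx* against C57 mice 2 smooth muscle markers were lower, Cnn1 (-0.63, 0.0456) and Smtn (-0.37, 0.0481). The part of fibre type in the differences of Ankrd2, Csrp3 and Myoz2 was not tested.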

How the data were processed

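Messenger RNA of the mid-belly of the TA of 11 mice, each a separate animal, was measured on Mouse Gene ST 1.1 arrays. The authors made the intensities in Affymetrix Expression Console by RMA with sketch-quantile normalisation and median polish, and deposited them on a linear scale for 28350 probe sets; log2 was taken of the deposited intensity. Probe sets with a group mean of at least 30 in any group were tested with limma 3.58.1 (lmFit and eBayes, R 4.3.3), with 1 mean per group over all 11 mice, two-sided, and Benjamini-Hochberg adjustment over 14494 probe sets. The members and gene lists were chosen with earlier results of these data known. Of listed genes, those named are up to 4 called between *mdx* and C57 mice by size, up to 2 called between treated and *mdx* mice, and the brightest gene of the tissue check. Alternatives were other tests, filters, priors, scalings, array weights, a replicate block and leaving out each mouse. The fit was tested on simulated data. Promoters came from RefSeq (GRCm38.p6). Python 3.11.15 (pandas 2.3.3, NumPy 2.4.6) handled tables and matplotlib 3.10.9 figures.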

Additional observations from a re-analysis of the deposited data

Results flagged for a closer look

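Of 20 groups of 4 mice tested, 1 held a mouse far from the others. Ankrd2 in *mdx* replicate 1 had a log2 signal of 9.29, the nearest *mdx* mouse 9.57 and the highest 9.61, so the gap was 0.875 of the group's range. Chance alone flags about 1 in 20 such groups.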

How the results depend on the processing

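Over 23 alternatives for each of 10 genes in 3 comparisons, 644 of 690 values kept direction and side of the threshold, 26 lost the call, 13 gained it and 7 changed sign. The sign changes were in differences that had not passed. Flnc in *mdx* minus C57 was -0.005 with the replicate block, -0.03 without C57 replicate 1 and -0.06 without *mdx* replicate 4. Leaving out each mouse moved Nrap between -0.285 and 0.02 in *mdx* minus C57 and between -0.072 and 0.28 in treated minus C57, with the sign turned without C57 replicate 1 and without C57 replicate 3 respectively. Ankrd23 in treated minus C57 was -0.017 with each array centred, and Myoz2 -0.12 with array weights. The cause was not tested.

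Counts of called genes moved most with the methods' t-test. Between *mdx* and C57 mice it called 0 on the linear scale and 2 on the log2 scale; between treated and *mdx* mice 0 on both; between treated and C57 mice 3 on log2 and 2 on linear values. Calls over all probe sets, 1742, 1615 and 3564 in these comparisons, were 791, 88 and 1274 with that test on log2 values, 538, 77 and 879 on linear values, 3379, 4614 and 6547 with array weights, and 1145, 498 and 2332 with the replicate block. They were 1151 and 2228 in the first and last comparison with a minimum signal of 100. A fit of treated and *mdx* mice alone gave 730 between them. At the thresholds of the study's text, p under 0.01 and 1.5-fold, the calls were 1094, 724 and 1627. That p came from limma and not from the study's t-test. Leaving out each mouse gave 3 to 3, 1 to 4 and 4 to 7 called genes in these comparisons. The lowest, 1, came without treated replicate 4; the highest in treated against *mdx*, 4, came without treated replicate 2, where Ankrd1 was called lower (-1.03, limma adjusted p = 0.0397).

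Mice of the same number share only a number: correlations of their deviations from group means ran from -0.30 to 0.15. With the replicate block, 3, 2 and 5 genes were called, Myoz2 being lost between treated and *mdx* mice (adjusted p = 0.0559). It was also lost with no filter (0.0586), quantile scaling (0.0525) and a fit of the compared groups alone (0.0643), and Myoz2 in *mdx* minus C57 passed with array weights (-0.87, adjusted p = 0.0183).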
